A study of Mus musculus with 12 samples.

Results

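The 58 genes described here are cell cycle genes taken by symbol from the 55487 gene IDs of the count table. They form 2 lists, 30 genes of the G2 phase and mitosis (Mki67 to Nek2) and 28 genes of S phase and DNA replication (Mcm2 to Hells). The rule for the lists speaks of 30 S phase genes, and the 28 that it names were used. Each of the 58 symbols matched 1 gene ID, and all 58 genes were among the 15734 genes abundant enough to be tested.

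A dividing cell loads the MCM helicase onto replication origins in G1 and copies its DNA in S phase, using nucleotides made by ribonucleotide reductase and the thymidylate enzymes. In mitosis, cyclin-dependent and Polo kinases, kinesins and kinetochore proteins then separate the copies. Transcription of the S phase genes peaks around the G1/S border under E2F factors, while many G2 and mitosis genes peak later, under complexes that hold MuvB with MYBL2 or FOXM1. Podocytes, the epithelial cells around the glomerular capillaries, have largely left the cell cycle in the adult kidney, whereas podocyte lines such as MPC5 can divide in culture. The data described here are RNA levels, and whether the cells were dividing at the culture temperature used was not measured.

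The data are 12 poly(A)-selected RNA-seq libraries of wild-type MPC5 cells, 6 transfected with a plasmid that overexpresses Sparc (SPARCoe) and 6 with the empty vector plasmid, all at 24 h after transfection and grown at 37 °C. SPARC is a secreted, collagen-binding matricellular protein, and the series links it to podocyte damage in Alport syndrome, a hereditary disease of the glomerular basement membrane. The labels give neither the state of differentiation of the cells nor the promoter that drives the Sparc insert, and both groups are the same cell line. Whether the 6 libraries per group came from separate cultures is not stated, and the p-values therefore reflect the scatter among libraries alone, which could be technical.

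Library totals ran from 34927871 to 47380987 counts in SPARCoe and from 33051035 to 47296258 counts in vector. Sparc averaged 10119.7 ± 260.5 CPM in SPARCoe and 751 ± 11.2 CPM in vector (SD, n = 6 each), where CPM is the count scaled to a common library size. The log2 fold change of Sparc was 3.75 ± 0.02 (edgeR adjusted p = 6.69e-61; errors of log2 fold changes are SE throughout), and all SPARCoe libraries lay above all vector libraries. The first principal component of log2 CPM, with 45.2% of the variance, separated the groups. SPARCoe libraries lay at -28.8 to -26.97 and vector libraries at 26.01 to 29.1. The labels name no batch, and the part of handling in this split was not tested. On the second principal component, with 7.34% of the variance, vector replicate 4 stood apart from the other libraries. Among podocyte markers, Nphs1, which encodes nephrin of the slit diaphragm, and Wt1 were too low to be tested, with 53 and 20 counts over all SPARCoe libraries, against 0 and 37 counts over all vector libraries. Synpo, an actin-associated protein of podocytes, averaged 46.0 CPM in SPARCoe and 66.6 CPM in vector (edgeR adjusted p = 8.85e-16), and Podxl, their surface sialomucin, 96.7 CPM in SPARCoe and 88.5 CPM in vector (edgeR adjusted p = 3.11e-04). FPKM values are divided by the library total and by a gene length implied in the deposited values, and rankings per length rest on those lengths. Of 5 tubule markers 3 were tested and all 3 fell (Lrp2, Pax8 and Cdh16, edgeR adjusted p under 0.05), Umod was at 0 counts, and the 5 summed to between 228 and 252 FPKM in SPARCoe libraries and between 275 and 302 FPKM in vector libraries. The part of these markers in the cell cycle results was not tested. Of 4 endothelial markers 1 rose and 1 fell, with a sum of 0.476 to 0.952 FPKM in SPARCoe libraries and 0.492 to 0.772 FPKM in vector libraries, and of 3 mesangial markers 1 fell, with a sum of 6.07 to 7.69 FPKM in SPARCoe libraries and 7.4 to 9.18 FPKM in vector libraries. Leukocyte markers summed to at most 0.22 FPKM in SPARCoe libraries and at most 0.0625 FPKM in vector libraries.

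The upstream DNA of the genes that changed is shown first, because the lists differ in the promoter motifs they hold. A reference table of promoters from RefSeq (GRCm38.p6) held 48 of the 58 genes, 24 in each list. The window searched ran from 250 bases before to 50 bases after the RefSeq start, on both strands. The motifs were the cell cycle genes homology region, or CHR (TTTGAA or TTCGAA), to which MuvB complexes bind, the CCAAT box (CCAAT), to which NF-Y binds, and 4 E2F-like motifs. These are spelled TTCCCGC in 1 form, then TTGGCGC in another, TTCGCGC in a further form and TTGCCGC in the last. The 120 bases before the start are printed 5′ to 3′ along the gene's strand, with every match to a motif, in either orientation, in capitals. In Prim1 the E2F-like match and the CCAAT box overlap.
Shown for the G2 and mitosis genes are the 4 with the smallest adjusted p that had a promoter in the table and a motif before the start.
Mki67, chr7:135716380-135716499, minus strand: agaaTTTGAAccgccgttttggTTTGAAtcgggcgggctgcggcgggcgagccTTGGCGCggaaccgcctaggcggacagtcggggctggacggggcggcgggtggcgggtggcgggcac
Ube2c, chr2:164769809-164769928, plus strand: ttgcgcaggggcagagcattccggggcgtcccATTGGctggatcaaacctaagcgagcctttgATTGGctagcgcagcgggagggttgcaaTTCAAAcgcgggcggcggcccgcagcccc
Top2a, chr11:99024190-99024309, minus strand: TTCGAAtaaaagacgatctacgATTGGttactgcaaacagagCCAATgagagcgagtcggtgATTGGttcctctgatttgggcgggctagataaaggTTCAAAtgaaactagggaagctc
Cenpf, chr1:189688087-189688206, minus strand: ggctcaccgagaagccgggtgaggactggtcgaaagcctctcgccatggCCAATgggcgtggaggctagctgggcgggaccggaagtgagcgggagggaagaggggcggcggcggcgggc
Shown for the S phase genes are the 4 chosen in the same way.
E2f2, chr4:136172154-136172273, plus strand: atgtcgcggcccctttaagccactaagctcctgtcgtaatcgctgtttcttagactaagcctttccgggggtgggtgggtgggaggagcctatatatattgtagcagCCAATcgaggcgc
Prim1, chr10:128015095-128015214, plus strand: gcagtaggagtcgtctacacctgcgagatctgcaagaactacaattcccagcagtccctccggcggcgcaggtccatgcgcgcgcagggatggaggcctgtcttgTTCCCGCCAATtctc
Rrm1, chr7:102441575-102441694, plus strand: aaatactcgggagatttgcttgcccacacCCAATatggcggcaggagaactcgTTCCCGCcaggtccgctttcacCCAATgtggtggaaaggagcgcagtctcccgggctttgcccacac
Dtl, chr1:191575545-191575664, minus strand: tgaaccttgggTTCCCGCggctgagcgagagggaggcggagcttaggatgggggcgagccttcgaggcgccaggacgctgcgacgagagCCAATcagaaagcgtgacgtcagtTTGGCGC
In these stretches, Top2a holds 2 CHR matches and 3 CCAAT boxes, Mki67 holds 2 CHR matches, and Cenpf holds a CCAAT box with no CHR match. Prim1, Rrm1 and Dtl each hold at least 1 E2F-like match, and the printed stretch of E2f2 holds only a CCAAT box. The longer searched windows hold further matches. That of Cenpf has a CHR match and that of E2f2 an E2F-like match after the start, and that of Mki67 has 3 CCAAT boxes farther upstream.

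A CHR was found in 19 of 24 windows of G2 and mitosis genes (79.2%) and in 3 of 24 windows of S phase genes (12.5%). It occurred in 19.2% of all 32851 windows in the table and in 13.9% of the 13404 windows of genes tested here. E2F-like matches stood the other way round, in 5 of 24 windows of G2 and mitosis genes (20.8%) and in 15 of 24 windows of S phase genes (62.5%), against 16.2% of the windows of tested genes. A CCAAT box was in 87.5% of the windows of G2 and mitosis genes and in 58.3% of those of S phase genes, against 37.6% of the windows of tested genes. Median GC content of the windows was 58.3% for G2 and mitosis genes, 58.2% for S phase genes and 60.7% for tested genes. Within the G2 and mitosis list, a CHR was in 7 of the 8 windows of genes that fell and in 11 of the 15 windows of genes with no call. Within the S phase list, all 4 genes that rose and 3 of the 5 windows of genes that fell held an E2F-like match. So did 8 of the 15 windows of genes with no call, and differences between these shares were not tested. These matches describe the letters in the windows and do not show that a factor was bound.

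The comparison of SPARCoe with vector asks whether the replication genes and the mitosis genes moved together. Nearly all calls among the G2 and mitosis genes were falls, led by Mki67, Nusap1 and Dlgap5, while S phase genes were called in both directions. Of 30 G2 and mitosis genes 11 fell (36.7%), 1 rose (3.33%) and 18 passed no test (edgeR adjusted p under 0.05 over all tested genes). Of 28 S phase genes 6 fell (21.4%), 4 rose (14.3%) and 18 passed no test. The background in this comparison was high, with 29.1% of all tested genes called, 14.1% lower and 14.9% higher.

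Abundant genes were called more often than the rest, and most cell cycle genes are abundant. Of the 2503 tested genes that averaged at least 100 CPM, 46.1% were called, 30.2% lower and 15.9% higher. At that level 9 of 21 G2 and mitosis genes fell (42.9%) with 1 rise, and 6 of 18 S phase genes fell (33.3%) with 2 rises. The share of abundant S phase genes that fell is thus near that of all abundant genes, and the difference between the lists was not tested. SPARCoe and vector libraries did not overlap for 7 of 30 G2 and mitosis genes and 4 of 28 S phase genes, against 15.6% of all tested genes and 28% of the abundant ones.

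The median log2 fold change was -0.05 over the G2 and mitosis genes, with 22 below 0 and 8 above, and 0.04 over the S phase genes, with 9 below 0 and 19 above. The median over all tested genes was -0.0033, with 50.99% below 0, and over the abundant ones -0.02, with 59.6% below 0. The median of the G2 and mitosis genes lay 0.09 below that of the S phase genes on the log2 scale. Without vector replicate 4 the medians differed by -0.11, with 12 falls among the G2 and mitosis genes. The median SE of a single gene was 0.02 in both lists. In bulk RNA, fewer cells in a phase of the cycle and less of a transcript per cell cannot be told apart.

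**Figure D1:**
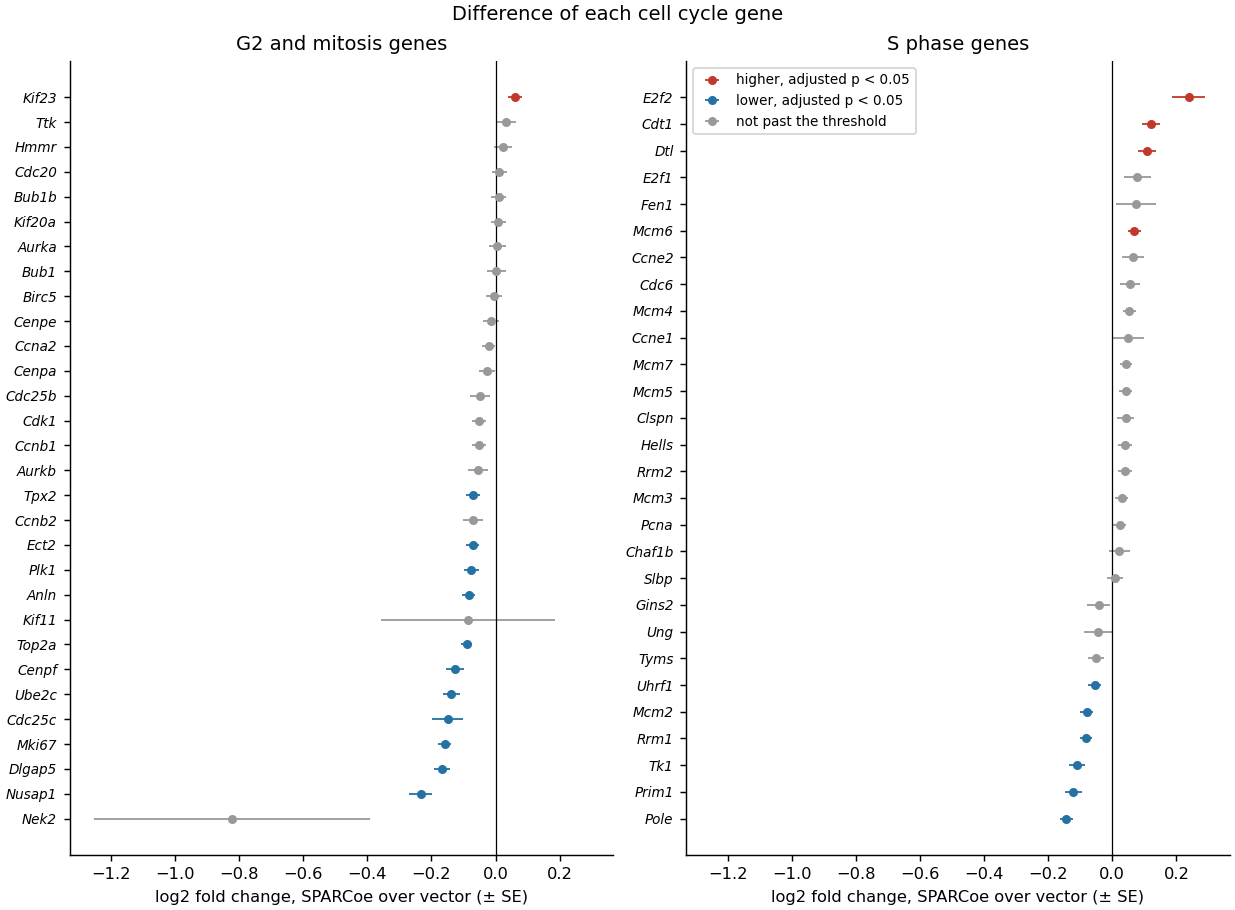
Log2 fold change (SPARCoe over vector, ± SE, 6 libraries each) of each of the 30 G2 and mitosis genes (left) and 28 S phase genes (right), sorted by value, with genes past adjusted p under 0.05 in colour. Falls prevail on the left, with 11 falls and 1 rise, and both directions appear on the right, and the widest bars belong to Nek2 and Kif11.

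**Figure D2:**
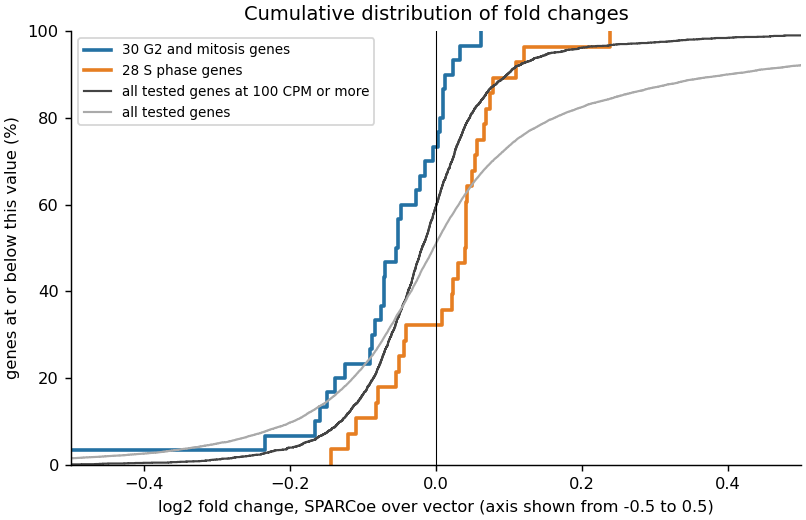
Cumulative share of genes (vertical axis, %) at or below each log2 fold change (horizontal axis, SPARCoe over vector) for the 2 lists, the tested genes that averaged at least 100 CPM, and all tested genes. The line of the G2 and mitosis genes, with a median of -0.05, lies left of that of the S phase genes, with a median of 0.04, and Nek2 at -0.82 lies outside the axis.

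Summed over their genes, the G2 and mitosis transcripts were lower in SPARCoe and the S phase sums differed by less than the spread between libraries. The G2 and mitosis sum was 5413 ± 77.6 CPM in SPARCoe libraries, which spanned 5285 to 5506 CPM, and 5655 ± 71.9 CPM in vector libraries, which spanned 5575 to 5732 CPM (SD, n = 6 each). All SPARCoe libraries lay below all vector libraries, and the mean fell by 4.28%. The S phase sum was 5340.1 ± 39.7 CPM in SPARCoe and 5342 ± 41.0 CPM in vector (SD, n = 6 each), with overlapping ranges of 5293 to 5403 CPM and 5296 to 5404 CPM. The ratio of the G2 and mitosis sum to the S phase sum was 1.01 ± 0.02 in SPARCoe (0.978 to 1.03) and 1.06 ± 0.017 in vector (1.04 to 1.08).

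Mki67 and Top2a, the largest terms among the G2 and mitosis genes, weighed on that ratio. The mean SPARCoe ratio was 0.958 times the vector ratio with every gene and 0.971 times without Mki67 and Top2a, and without them the libraries overlapped, at 0.744 to 0.783 in SPARCoe and 0.777 to 0.806 in vector. This variant was chosen after seeing the data. Per library, the median log2 CPM of the G2 and mitosis genes exceeded that of the S phase genes by 0.28 ± 0.06 in SPARCoe and 0.33 ± 0.06 in vector (SD, n = 6 each), with overlapping ranges of 0.19 to 0.35 and 0.26 to 0.40. SPARCoe replicate 5 had both the lowest ratio of sums and the lowest difference of medians.

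**Figure D3:**
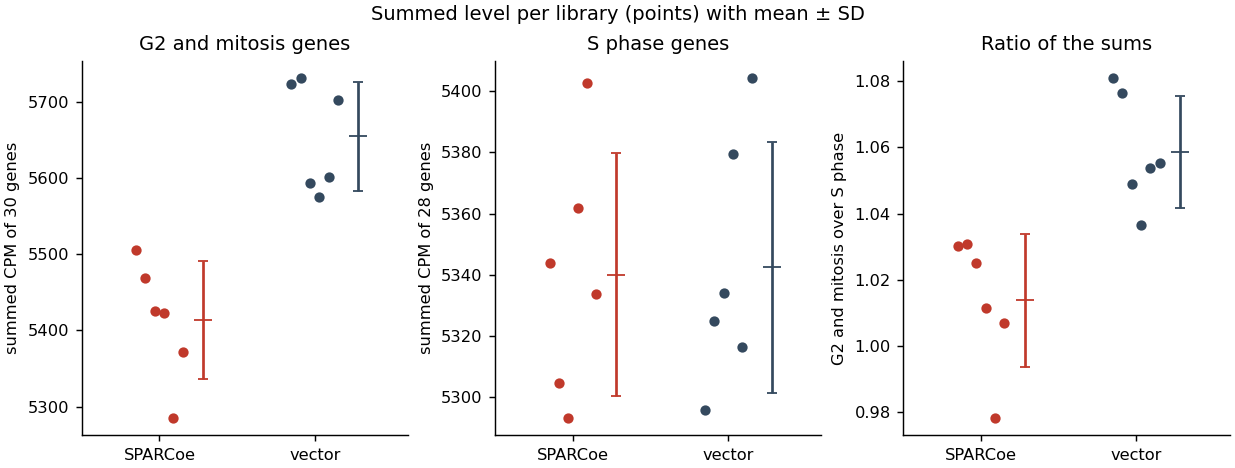
Summed CPM of the 30 G2 and mitosis genes, summed CPM of the 28 S phase genes, and the ratio of the sums, per library (points) with mean ± SD beside them, for SPARCoe and vector; the vertical axes do not start at 0. The SPARCoe points lie below all vector points in the first and last panels, at 5285 to 5506 against 5575 to 5732 CPM and 0.978 to 1.03 against 1.04 to 1.08, and mix with them in the middle panel.

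Among the G2 and mitosis genes, the chromosome proteins Mki67 and Top2a both fell. Mki67 encodes Ki-67, which coats mitotic chromosomes and serves as a marker of proliferation. Its lowest, median and highest library values were 597, 612 and 627 CPM in SPARCoe and 664, 680.1 and 712 CPM in vector, with no overlap. It fell by 10.5%, a log2 fold change of -0.16 ± 0.02 (edgeR adjusted p = 6.72e-09). In GENCODE M21 (GRCm38) Mki67 lies on chr7:135689784-135716361, minus strand, and overlaps Gm45240 on the other strand. Top2a encodes topoisomerase II alpha, which untangles the copied chromosomes, and had the highest level per length of the 30 genes, with 410.3 FPKM in SPARCoe and 437 FPKM in vector. Its values were 670.1, 699.7 and 716 CPM in SPARCoe and 724, 742 and 757 CPM in vector, again with no overlap, and a log2 fold change of -0.09 ± 0.02 (edgeR adjusted p = 1.18e-04).

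Of the 9 genes of the mitotic switch, 2 fell and 7 passed no test. Plk1, the Polo kinase, averaged 161 ± 5.05 CPM in SPARCoe and 170.2 ± 3.1 CPM in vector (SD, n = 6 each, edgeR adjusted p = 0.00943). Cdc25c, a phosphatase that activates CDK1, averaged 19.999 ± 0.851 CPM in SPARCoe and 22.2 ± 1.06 CPM in vector (edgeR adjusted p = 0.0159). For both genes the SPARCoe and vector libraries overlapped, and without SPARCoe replicate 6 Cdc25c was no longer called (edgeR adjusted p = 0.0503). Ccnb1, the B-type cyclin that drives entry into mitosis, was the most abundant per length of those not called and had 278, 289.6 and 296 CPM in SPARCoe against 281, 299.7 and 309.6 CPM in vector (log2 fold change -0.05 ± 0.02, edgeR adjusted p = 0.0707). Ccna2, cyclin A2, had 295, 296 and 309 CPM in SPARCoe against 299, 301 and 312 CPM in vector (log2 fold change -0.02 ± 0.02, edgeR adjusted p = 0.467). The log2 fold changes of the 7 without a call ran from -0.07 to 0.01. Of these, Ccnb1 was called as lower without vector replicate 4 (edgeR adjusted p = 0.0125). It was also called as lower on all libraries with offsets for GC content and gene length (edgeR adjusted p = 0.0486). Ccnb2 and Cdk1 were called as lower without SPARCoe replicate 1 (edgeR adjusted p = 0.043 and 0.0392).

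The spindle group held the deepest of the called falls. Nusap1, a microtubule-binding protein of the spindle, had 48.2, 52.96 and 54.4 CPM in SPARCoe and 58.01, 61.6 and 66.7 CPM in vector. It fell by 14.98%, a log2 fold change of -0.23 ± 0.03 (edgeR adjusted p = 5.93e-07), with no overlap of the groups. Nusap1 lies on chr2:119618298-119651244, plus strand, in GENCODE M21 and overlaps Oip5 on the other strand, so without a stated strand setting the reads of the 2 genes cannot be told apart. Dlgap5, which stabilizes kinetochore microtubules, had 98.2, 101 and 105 CPM in SPARCoe and 109, 113 and 116 CPM in vector, a log2 fold change of -0.17 ± 0.03 (edgeR adjusted p = 8.92e-07). Tpx2, an activator of Aurora A on spindle microtubules, averaged 227 ± 3.09 CPM in SPARCoe and 238 ± 6.41 CPM in vector (edgeR adjusted p = 0.00895), with no overlap. Ube2c, the E2 enzyme of the anaphase-promoting complex, had 123, 127 and 136 CPM in SPARCoe and 136, 141 and 145 CPM in vector (log2 fold change -0.14 ± 0.03, edgeR adjusted p = 3.48e-05). Its SPARCoe libraries all lay below its vector libraries, while Cdc20, the activator of the same complex, passed no test (log2 fold change 0.01 ± 0.02, edgeR adjusted p = 0.774).

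The cytokinesis genes moved both ways. Anln, the actin-binding anillin of the cleavage furrow, averaged 349.8 ± 4.86 CPM in SPARCoe and 371 ± 9.11 CPM in vector (SD, n = 6 each, edgeR adjusted p = 8.25e-04), with no overlap of the groups. The Anln gene overlaps Gm48646 on the same strand in GENCODE M21. Ect2, the exchange factor that activates RhoA at the furrow, averaged 255 ± 6.01 CPM in SPARCoe and 268 ± 7.28 CPM in vector (edgeR adjusted p = 0.00852). Kif23, a motor of the central spindle, was the 1 gene of the list that rose, with 215, 219 and 227 CPM in SPARCoe and 204, 208 and 223 CPM in vector (log2 fold change 0.06 ± 0.02, edgeR adjusted p = 0.0365). The Kif23 groups overlapped, and its call was lost in 9 of 24 alternatives. The highest adjusted p came from the FPKM fit without a filter (limma adjusted p = 0.111). Also among the 9 were the fits without SPARCoe replicates 2 or 3 or vector replicates 3, 4 or 5, with edgeR adjusted p-values of up to 0.103. Of the 7 kinetochore and checkpoint genes, Cenpf, a kinetochore protein that builds up in G2, fell, with 138, 151 and 154 CPM in SPARCoe and 153, 161 and 169.6 CPM in vector (log2 fold change -0.13 ± 0.03, edgeR adjusted p = 5.61e-04).

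Kif11 and Nek2 varied far more between libraries of a group than the other genes, and are given in full for that reason, Kif11 having been chosen after its values were seen. Kif11 encodes the kinesin that pushes spindle poles apart. It had 15.2, 14.1, 15.5, 30.4, 14.1 and 22.7 CPM in SPARCoe replicates 1 to 6 and 17.5, 14.8, 34.2, 19.3, 17.3 and 15.7 CPM in vector replicates 1 to 6. High values occurred in both groups, in SPARCoe replicates 4 and 6 and in vector replicate 3. Nek2, a centrosome kinase and the least abundant of the 58 genes per length, had 2.15, 2.06, 2.70, 2.90, 2.29 and 2.49 CPM in SPARCoe replicates 1 to 6 and 1.79, 3.59, 11.5, 2.65, 3.08 and 3.09 CPM in vector replicates 1 to 6. Vector replicate 3 was the highest vector library for both genes. Whether read assignment had a part in the levels of Kif11 and Nek2 was not tested. The coefficient of variation was 35.4% in SPARCoe and 36.5% in vector for Kif11, and 13.4% in SPARCoe and 83.6% in vector for Nek2, against 0.72% to 6.76% for the other 56 genes. Nek2 had a log2 fold change of -0.82 ± 0.43 (edgeR adjusted p = 0.199), and -0.22 (edgeR adjusted p = 0.304) without vector replicate 3. Kif11 changed sign without that library, with log2 fold changes of -0.09 (edgeR adjusted p = 0.865) with it and 0.15 (edgeR adjusted p = 0.708) without it.

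**Figure D4:**
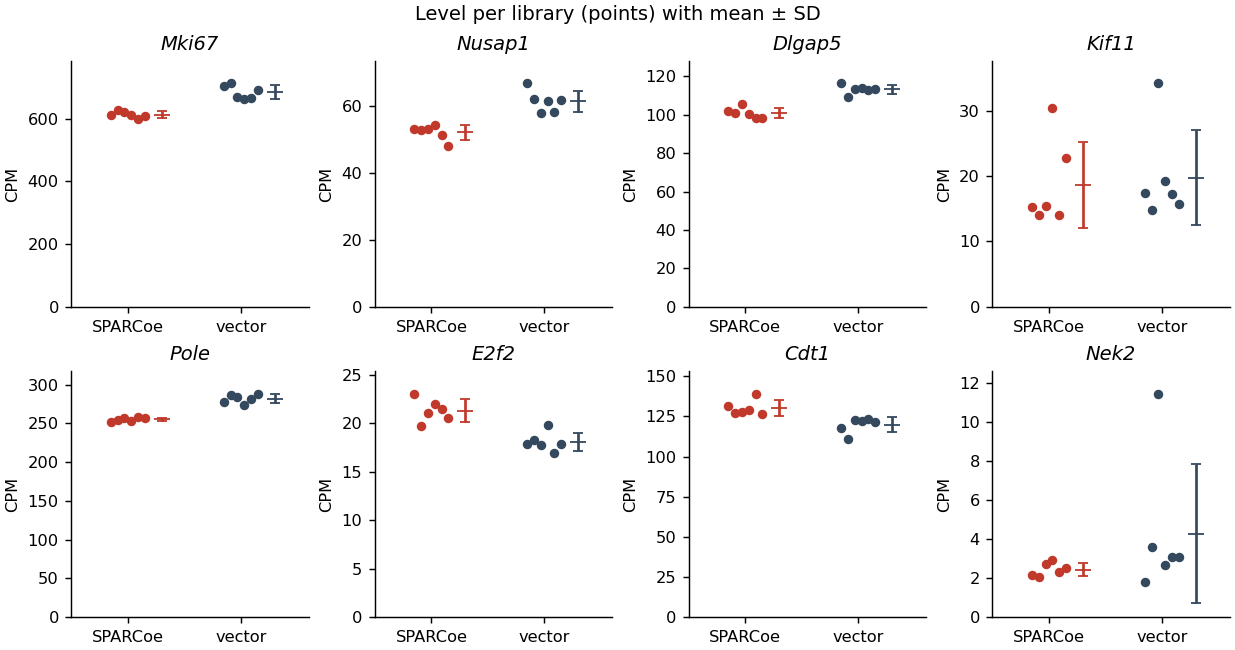
CPM per library (points) with mean ± SD beside them for 4 G2 and mitosis genes in the top row, 3 S phase genes in the bottom row and Nek2 at bottom right, SPARCoe left of vector, axes from 0. Mki67, Nusap1, Dlgap5, Pole and Cdt1 separate the groups, E2f2 overlaps slightly, and vector replicate 3 stands at 34.2 CPM for Kif11 and 11.5 CPM for Nek2.

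Among the S phase genes, E2f2, Cdt1, Dtl and Mcm6 rose, and Pole, Prim1, Rrm1, Tk1, Mcm2 and Uhrf1 fell. E2f2, an E2F activator of S phase transcription, had 19.7, 21.3 and 23.1 CPM in SPARCoe and 17.0, 17.9 and 19.8 CPM in vector. Its groups touched only at 1 SPARCoe and 1 vector library, and its log2 fold change of 0.24 ± 0.05 (edgeR adjusted p = 2.53e-04) was the highest of the list. The other genes of the E2F and cyclin E group, E2f1, Ccne1 and Ccne2, passed no test, with log2 fold changes of 0.08, 0.05 and 0.07. Cdt1, which loads the MCM helicase, had 127, 128 and 139 CPM in SPARCoe and 111, 122 and 124 CPM in vector, with no overlap (log2 fold change 0.12 ± 0.03, edgeR adjusted p = 5.18e-04). Cdt1 overlaps Gm20388 on the same strand in GENCODE M21, so part of its reads may be uncertain. Dtl, the adaptor of the ubiquitin ligase that removes Cdt1 in S phase, also rose, averaging 95.6 ± 3.07 CPM in SPARCoe and 88.6 ± 3.27 CPM in vector (SD, n = 6 each, edgeR adjusted p = 0.00221).

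The 6 MCM helicase subunits did not move together. Mcm6 rose, with 251, 255 and 264 CPM in SPARCoe and 239, 242 and 249.9 CPM in vector (log2 fold change 0.07 ± 0.02, edgeR adjusted p = 0.00805). Mcm2 fell, with 343, 348 and 369.5 CPM in SPARCoe and 366, 369.9 and 387 CPM in vector (log2 fold change -0.08 ± 0.02, edgeR adjusted p = 0.00242). The Mcm6 groups were apart and the Mcm2 groups overlapped, and the other 4 subunits passed no test, with log2 fold changes of 0.03 to 0.05. Among them Mcm4 (edgeR adjusted p = 0.0528) was called as higher in 11 of 24 alternatives, by DESeq2, with RLE factors and without SPARCoe replicate 5 or vector replicates 1 or 2 among others, Mcm7 in 6 and Mcm5 in 2, of which 1 was without SPARCoe replicate 4. Mcm7, with the highest level per length of the S phase genes at 446 FPKM in SPARCoe and 433 FPKM in vector, had 469, 474 and 484 CPM in SPARCoe against 450.2, 464 and 472 CPM in vector (log2 fold change 0.04 ± 0.02, edgeR adjusted p = 0.0799). The deposited values imply a length of 1068 bases for Mcm7.

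At the fork, Pole and Prim1 fell, and Pcna, Fen1, Clspn and Chaf1b passed no test. Pole, the catalytic subunit of the leading-strand polymerase epsilon, had 252, 256 and 258 CPM in SPARCoe and 274, 283 and 289 CPM in vector. Its groups were well apart, and it fell by 9.46%, a log2 fold change of -0.14 ± 0.02 (edgeR adjusted p = 1.11e-07). Pole lies on chr5:110286306-110337474, plus strand, in GENCODE M21, and overlaps Gm15791 and Gm26277 on the same strand and Gm15792 on the other. Prim1, the primase subunit that starts new strands, had 102, 103 and 108 CPM in SPARCoe and 107, 113 and 119 CPM in vector (log2 fold change -0.12 ± 0.03, edgeR adjusted p = 2.61e-04), with a slight overlap. Fen1, the flap endonuclease of lagging-strand maturation, had the lowest level per length of the S phase genes, with 5.68 FPKM in SPARCoe and 5.38 FPKM in vector. It overlaps Gm10143 and Tmem258 on the other strand, and its log2 fold change was 0.07 ± 0.06 (edgeR adjusted p = 0.426). The part of read assignment in the low level of Fen1 was not tested.

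In nucleotide supply, Rrm1 and Tk1 fell. Rrm1, the large subunit of ribonucleotide reductase, had 504, 522 and 532 CPM in SPARCoe and 538, 551 and 569.8 CPM in vector, with no overlap (log2 fold change -0.08 ± 0.02, edgeR adjusted p = 5.37e-04). The Rrm1 gene overlaps Gm45399 on the same strand. Rrm2, its small subunit, passed no test and had 356, 372 and 381 CPM in SPARCoe against 351, 358 and 374 CPM in vector (log2 fold change 0.04 ± 0.02, edgeR adjusted p = 0.149). The subunits of 1 enzyme thus had fold changes of opposite sign, and their difference was not tested. Tk1, thymidine kinase, averaged 119.6 ± 3.4 CPM in SPARCoe and 129 ± 3.97 CPM in vector (SD, n = 6 each, edgeR adjusted p = 6.18e-04), and overlaps Afmid on the other strand. Uhrf1, which carries DNA methylation through replication, averaged 287 ± 6.23 CPM in SPARCoe and 299 ± 7.18 CPM in vector (edgeR adjusted p = 0.0403), a call lost in 12 of 24 alternatives. Among these were the fits without SPARCoe replicates 2, 3, 4 or 6 or vector replicates 1, 3 or 5, with adjusted p-values of up to 0.141.

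Lists of other cell cycle genes were described in the same way, without a test over a list. Of 20 origin licensing and firing genes 3 rose and 1 fell, led by Orc1, the origin recognition subunit, with a log2 fold change of 0.36 ± 0.04 (edgeR adjusted p = 1.24e-08), and Mcm10, with 0.13 ± 0.03 (edgeR adjusted p = 2.15e-04). Orc1 averaged 28.1 ± 1.01 CPM in SPARCoe and 21.9 ± 0.982 CPM in vector (SD, n = 6 each). Of 28 polymerase, clamp loader and fork genes none rose and 8 fell, with a median of -0.04. They included the single-strand binding subunit Rpa1 at -0.13 ± 0.02 (edgeR adjusted p = 1.80e-06) and the clamp loader subunit Rfc2 at -0.12 ± 0.03 (edgeR adjusted p = 5.18e-04). Of 15 nucleotide supply genes 4 rose and 2 fell, with Shmt1, a folate enzyme, at 0.23 ± 0.03 (edgeR adjusted p = 2.72e-08) and Ctps, CTP synthase, at -0.10 ± 0.02 (edgeR adjusted p = 1.55e-04). Of all tested genes 14.9% rose and 14.1% fell. Rises and falls made up 15% and 5% of the licensing list and 26.7% and 13.3% of the nucleotide list. Of the polymerase list 0% rose and 28.6% fell. Among tested genes that averaged at least 100 CPM, 15.9% rose and 30.2% fell. That level was reached by 4 of 20 licensing, 8 of 15 nucleotide and 9 of 28 polymerase genes. Differences between lists were not tested. Rises in the nucleotide list ran from 3 to 7 over the 24 alternatives. The 1 licensing fall, Orc3 (named after its value was seen), was lost in 15 of 24 alternatives, among them those without SPARCoe replicates 2, 5 or 6 or vector replicates 1, 2, 4, 5 or 6.

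Of 18 tested G1/S cyclin, E2F and pocket protein genes 3 rose and 4 fell. Rb1, the retinoblastoma protein that restrains E2F, had a log2 fold change of 0.36 ± 0.04 (edgeR adjusted p = 6.16e-09), and Ccnd2, cyclin D2, one of -0.23 ± 0.04 (edgeR adjusted p = 3.75e-06). Skp2 and Ccna1 were too low to be tested. Of 14 CDK inhibitor and p53-linked arrest genes 6 rose and 1 fell, with a median of 0.12, and 2 fell without SPARCoe replicate 5 or vector replicate 6. Gtse1, which counts as 1 of the 6 rises, is a microtubule-binding protein of G2 that binds p53, and it is not a CDK inhibitor. It averaged 218 ± 7.002 CPM in SPARCoe and 164 ± 4.78 CPM in vector (SD, n = 6 each), a log2 fold change of 0.41 ± 0.02 (edgeR adjusted p = 1.80e-18). Plk3, a stress-responsive Polo-like kinase, had a log2 fold change of 0.28 ± 0.04 (edgeR adjusted p = 1.71e-07). Of the 10 DREAM and MYBL2-FOXM1 factors 2 rose and 1 fell, the fall being lost without SPARCoe replicates 2 or 4 or vector replicates 1, 3 or 5, while 2 fell without SPARCoe replicate 6. The rises were the NF-Y subunit Nfyb at 0.29 ± 0.04 (edgeR adjusted p = 1.09e-06) and the MuvB subunit Lin52 at 0.35 ± 0.08 (edgeR adjusted p = 4.97e-04). Rises and falls made up 16.7% and 22.2% of the G1/S list, 42.9% and 7.14% of the arrest list and 20% and 10% of the DREAM list. Of all tested genes 14.9% rose and 14.1% fell, and of those that averaged at least 100 CPM 15.9% rose and 30.2% fell. That level was reached by 6 of 18 G1/S genes, 5 of 14 arrest genes and 3 of 10 DREAM genes. Differences between lists were not tested.

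The other mitosis lists had more falls than rises. Of 36 kinetochore and spindle checkpoint genes none rose and 11 fell, with a median of -0.06, with 6 falls left without SPARCoe replicate 3 and 7 without vector replicate 2. A rise was called in 6 of 24 alternatives, among them those without SPARCoe replicate 5 or vector replicates 1 or 2. The list was led by Kntc1 at -0.12 ± 0.02 (edgeR adjusted p = 3.13e-05) and Spc24, a subunit of the Ndc80 complex, at -0.20 ± 0.04 (edgeR adjusted p = 3.73e-04). Of 27 spindle motor and cytokinesis genes 6 rose and 10 fell, so that this list, as did Kif23, held rises too. Iqgap3, a scaffold of cytokinesis, averaged 325 ± 8.84 CPM in SPARCoe and 379.9 ± 7.51 CPM in vector (SD, n = 6 each, log2 fold change -0.22 ± 0.02, edgeR adjusted p = 2.88e-12), and Ckap2 averaged 104 ± 1.25 CPM in SPARCoe and 90.4 ± 2.53 CPM in vector (log2 fold change 0.20 ± 0.03, edgeR adjusted p = 1.52e-08). Of 20 condensin, cohesin and separase genes 2 rose and 6 fell, with 1 rise left without SPARCoe replicates 2 or 4 or vector replicate 6. Its falls include Smc4 at -0.12 ± 0.02 (edgeR adjusted p = 2.28e-06) and Rad21 at -0.11 ± 0.02 (edgeR adjusted p = 5.47e-06). Of 17 genes of the anaphase-promoting complex 1 rose and 6 fell, with 3 falls left without SPARCoe replicate 6, and the rise was lost in 11 of 24 alternatives, among them those without SPARCoe replicates 1, 3, 5 or 6 or vector replicates 1 or 2. Among its falls were Anapc2 at -0.15 ± 0.03 (edgeR adjusted p = 1.20e-05) and its activator Fzr1 at -0.14 ± 0.03 (edgeR adjusted p = 2.04e-04). Falls made up 30.6% of the kinetochore list, of which 7 of 36 genes averaged at least 100 CPM, and 30% of the condensin list, of which 14 of 20 did, against 14.1% of all tested genes, 11.1% of those under 100 CPM and 30.2% of those at or above it. Of the spindle motor list 37.0% fell and 22.2% rose, and 11 of 27 genes averaged at least 100 CPM. Of the anaphase-promoting complex list 35.3% fell and 5.88% rose, and 7 of 17 genes reached that level. Rises made up 14.9% of all tested genes.

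**Figure D5:**
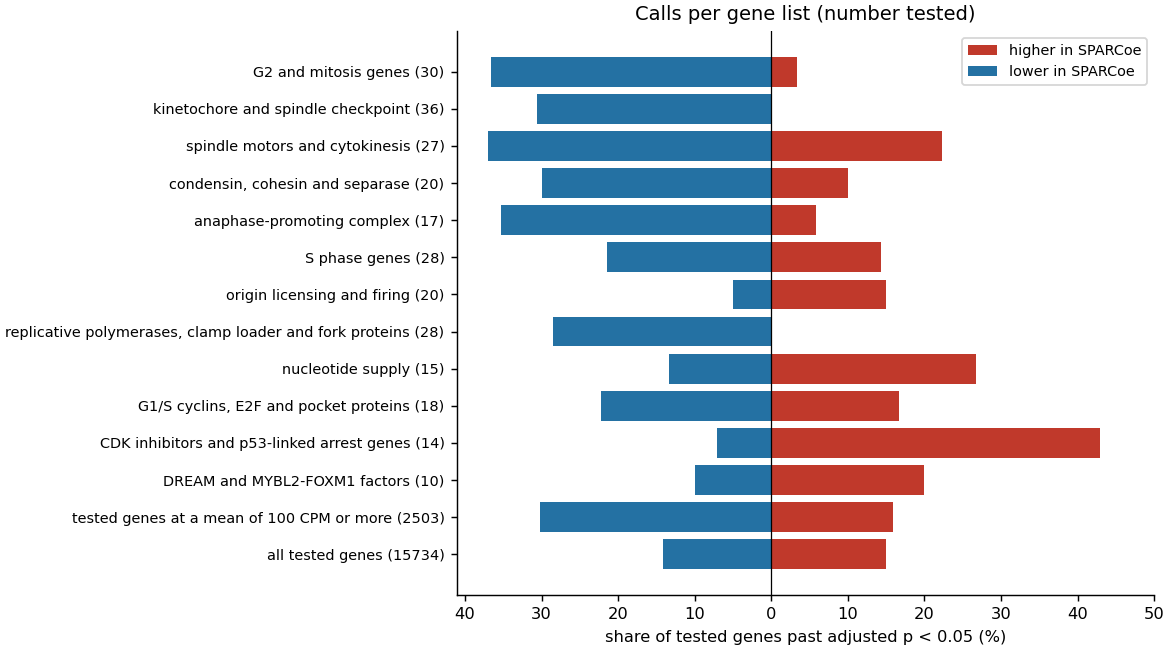
Share of tested genes (horizontal axis, %) that were lower (left) or higher (right) in SPARCoe at adjusted p under 0.05, for each list, with the number tested in brackets, and for all tested genes below. The G2 and mitosis genes show 36.7% lower and 3.33% higher, the S phase genes 21.4% lower and 14.3% higher, and all tested genes 14.1% lower and 14.9% higher.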

How the data were processed

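The authors deposited whole-number read counts per Ensembl gene, with FPKM values beside them, for 12 libraries. The submitters' processing notes name Bowtie2, HISAT2, featureCounts, SAMtools, Picard and edgeR. Not given in the sources used here are versions, genome build, annotation, strand setting and the handling of multi-mapping reads. In the deposited counts 56.36% of values from 1 to 10 were even, so read pairs appear to add 2 in many cases, and the precision is lower than the totals imply.

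Counts were tested with edgeR 4.0.16 in R 4.3.3 (TMM factors, filterByExpr, robust quasi-likelihood fit, two-sided, Benjamini-Hochberg adjusted p under 0.05 over 15734 genes), SPARCoe against vector on all libraries with no covariate. The pipeline was run on simulated counts, in which the smallest planted change was larger than that of most called members. That run therefore does not cover changes as small as theirs. Alternatives used DESeq2 1.42.0 and limma 3.58.1, other factors and filters, a replicate block, GC and length offsets, deposited FPKM with pseudocounts of 1 and 0.1, and each library left out. Replicate numbers did not pair the libraries.

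The members and lists were chosen with earlier results of these data known. Genes named were every called member, the 2 most abundant uncalled and the least abundant member of each list by FPKM, up to 2 genes of each other list and Sparc. Genes were grouped by textbook role within the lists, and others, and the ends of a range, were chosen after their values were seen. Symbols matched 55141 IDs. Some marker genes are not reported here. Positions are from GENCODE M21 (GRCm38), not the authors' annotation, and overlaps with other genes are not named for every gene.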

Additional observations from a re-analysis of the deposited data

Results flagged for a closer look

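Each group of 6 libraries was searched, for the 58 genes, Sparc, the 2 sums and their ratio, for a highest or lowest library whose gap to the next, divided by the group's range, exceeded Dixon's critical value. Of 124 such groups 10 had one, and chance gives about 1 in 20. Vector replicate 3 was the highest vector library for Mcm2 at 387 CPM, Kif11 at 34.2 CPM and Nek2 at 11.5 CPM, where the other vector libraries reached at most 373, 19.3 and 3.59 CPM. SPARCoe replicate 5 was the highest SPARCoe library for Pcna at 301 CPM and Birc5 at 122.6 CPM, and the lowest for Bub1 at 86.5 CPM. Vector replicate 5 was the highest vector library for Chaf1b at 82.9 CPM and the lowest for Hmmr at 120.6 CPM. SPARCoe replicate 2 was the highest SPARCoe library for Chaf1b at 81.4 CPM, and SPARCoe replicate 1 the highest for Cdc25b at 76.2 CPM. Of these genes Mcm2 was called, and it was called in every alternative run, the one without vector replicate 3 included.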

How the results depend on the processing

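Of 22 called genes, 18 were called in the same direction in all 24 alternatives, and Uhrf1, Kif23, Cdc25c and Ect2 lost the call in 12, 9, 1 and 1 of them (Ect2 in the FPKM fit without a filter, limma adjusted p = 0.0581). Of 36 uncalled genes 8 passed in at least 1 alternative. The G2 and mitosis median minus the S phase median was negative in all 24, from -0.11 without vector replicate 4 to -0.08 without SPARCoe replicate 5. The G2 and mitosis list held 10 to 13 falls and the S phase list 5 or 6. Rises among S phase genes numbered 7 with at least 1 CPM in at least 6 libraries and 7 with GC and length offsets, against 4. Rises among G2 and mitosis genes numbered 0 with no filter and in the 3 FPKM settings, and 0 to 1 with a library left out, against 1. The cause was not tested. Over all tested genes, rises ran from 1665 (FPKM + 0.1) to 2998 and falls from 1729 to 2346.

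Genes that changed sign were all uncalled, with adjusted p of 0.708 or more where they did. Birc5 stood at 0.0033 with upper-quartile factors and 0.0029 with the 1 CPM filter, and with no filter Aurka stood at -0.00078 and Bub1 at -0.0036. With a library left out, log2 fold changes ran from -0.020 to 0.0063 for Birc5, -0.010 to 0.028 for Bub1, -0.0012 to 0.025 for Slbp, -0.0022 to 0.018 for Kif20a, -0.00088 to 0.025 for Cdc20, -0.028 to 0.010 for Cenpe, -0.011 to 0.018 for Aurka and -0.28 to 0.15 for Kif11. The labels number the libraries 1 to 6 in both groups, but correlations of same-numbered libraries' deviations were -0.0106 to 0.0147 and no library correlated best with its own number. With the replicate block falls and rises numbered 11 and 1 among G2 and mitosis genes and 6 and 5 among S phase genes.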
